A study of Mus musculus with 9 samples.

Results

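The Myc network factors described here are 7 genes, Myc, Mycn, Max, Mxd1, Mxd4, Mxi1 and Mnt. They were taken by gene symbol from the platform annotation, which assigned 16 of the 45101 probe sets on the array to them: 1 for Myc, 3 for Mycn, 1 for Max, 3 for Mxd1, 4 for Mxd4, 2 for Mxi1 and 2 for Mnt. No member probe set was shared with another symbol. RNA was measured on 9 Affymetrix mouse arrays, 3 biological replicates for each of 3 populations sorted from the tracheal epithelium of mice hemizygous for a KRT5-GFP transgene. All mice carried this transgene, in which the promoter of this keratin drives green fluorescent protein (GFP), so the gates differ in which cells were taken and not in genotype, treatment or time. The GFP+ gate held cells with GFP that bound the lectin GSI-A3B, and the lectin-only gate held cells that bound the lectin without GFP. The labels call both of these basal cells (BCs). The columnar gate held cells with neither mark, which the labels call columnar epithelium. The age of the mice and whether animals were pooled are not given in the sources used here.

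Myc and its paralogue Mycn are transcription factors of the basic helix-loop-helix leucine zipper class. They bind DNA as heterodimers with Max, at a sequence known as the E-box, and activate genes of growth, ribosome production and the cell cycle. Mxd1, Mxd4, Mxi1 and Mnt also pair with Max and bind the same element, but recruit the corepressor Sin3 and histone deacetylases, so the same partner serves both activators and repressors. In epidermis and in myeloid blood cells, Mxd1 is known to be induced as cells leave the cycle and differentiate. The tracheal epithelium is pseudostratified, and its basal cells are progenitors from which its other cells are renewed.

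In build GRCm38.p6, RefSeq places Myc at chr15:61985341-61990361, Mycn at chr12:12936093-12941836, Max at chr12:76937269-76962323 and Mxd1 at chr6:86647044-86669234. Mxd4 lies at chr5:34176580-34187710, Mxi1 at chr19:53310128-53373293 and Mnt at chr11:74830806-74845725. Of the 7 members, 6 had an entry in the RefSeq promoter table of build GRCm38.p6, which gives 250 bases before and 50 after a transcript start. The canonical E-box CACGTG, which reads the same on both strands, lay in the windows of 3 of these 6 genes (50.0%), Max, Mxd4 and Mnt. Among all 14452 measured genes with an entry, 1479 (10.2%) held it. The variant CACGCG, searched also as CGCGTG on the other strand, was in 0 of the 6 and in 16.2% of all. The windows of Mxd1, Mxi1 and Mycn did not hold the letters CACGTG. The following windows are shown because they set the 3 members with the element, none of which was called in any comparison below, beside Mxd1, which was. Capitals mark CACGTG.
Max, chr12:76962199-76962498, minus strand: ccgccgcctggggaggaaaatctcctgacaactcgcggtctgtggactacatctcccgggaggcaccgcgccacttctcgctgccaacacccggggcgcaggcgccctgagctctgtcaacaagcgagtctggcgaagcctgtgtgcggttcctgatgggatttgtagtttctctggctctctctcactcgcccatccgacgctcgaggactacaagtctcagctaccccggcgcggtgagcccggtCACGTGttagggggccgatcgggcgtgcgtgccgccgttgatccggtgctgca
Mxd4, chr5:34187661-34187960, minus strand: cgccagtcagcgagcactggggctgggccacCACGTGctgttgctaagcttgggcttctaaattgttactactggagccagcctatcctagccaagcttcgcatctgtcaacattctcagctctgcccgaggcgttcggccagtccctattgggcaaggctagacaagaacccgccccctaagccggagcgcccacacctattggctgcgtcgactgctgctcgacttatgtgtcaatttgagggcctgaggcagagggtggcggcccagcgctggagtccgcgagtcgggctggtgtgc
Mnt, chr11:74830674-74830973, plus strand: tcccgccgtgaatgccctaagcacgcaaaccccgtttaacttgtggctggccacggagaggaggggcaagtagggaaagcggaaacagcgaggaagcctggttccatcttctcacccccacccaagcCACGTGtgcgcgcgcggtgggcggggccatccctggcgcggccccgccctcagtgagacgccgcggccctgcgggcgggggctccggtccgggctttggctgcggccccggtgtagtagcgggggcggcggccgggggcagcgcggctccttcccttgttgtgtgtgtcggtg
Mxd1, chr6:86669110-86669409, minus strand: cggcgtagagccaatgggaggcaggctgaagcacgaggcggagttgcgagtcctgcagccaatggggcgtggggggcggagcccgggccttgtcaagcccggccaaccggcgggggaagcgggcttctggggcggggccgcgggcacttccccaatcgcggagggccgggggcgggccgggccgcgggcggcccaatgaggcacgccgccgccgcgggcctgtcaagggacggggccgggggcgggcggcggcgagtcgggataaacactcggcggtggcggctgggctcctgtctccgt
In Max the element began 3 bases before the transcript start of this window, in Mnt 123 bases before and in Mxd4 219 bases before. For Max and Mnt that start lies inside the gene as placed above, downstream of its outer end. A match is a description of letters in this window and not evidence of binding.

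The arrays separated along the sorted marks. Signals are log2 values, and a level of 3.56 was taken as background. The mean signal of 12 basal cell genes lay at 11.22 to 11.45 in GFP+ cells, 10.25 to 10.49 in lectin-only cells and 7.14 to 7.86 in columnar cells. That of 11 ciliated cell genes lay at 4.46 to 5.27, 5.50 to 6.31 and 7.86 to 8.22 in the same order. Krt5, the keratin whose promoter drives GFP, had means of 13.43 in GFP+ cells, 12.88 in lectin-only cells and 7.95 in columnar cells. The lectin-only gate also carried leukocyte RNA, with a mean over 19 leukocyte genes of 9.27 to 9.98, against 5.93 to 7.26 in GFP+ cells and 5.31 to 5.94 in columnar cells. Replicate 3 of the lectin-only gate stood apart, with 73.0% of probe sets above background where the other 8 arrays had 65.3% to 66.3%. Replicate 1 of the GFP+ gate stood apart in another way: 124 of 18193 genes were at least 2 log2 units lower on it than on both other GFP+ arrays, while 4 and 0 genes were so on replicates 2 and 3. The labels do not say which arrays came from the same mice, and p-values measure the spread between these arrays.

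Myc was the member with the widest difference between gates, and its level separated all 3. Its only probe set, 1424942_a_at, had log2 signals of 10.77, 10.57 and 10.05 in GFP+ cells, 8.50, 9.13 and 8.77 in lectin-only cells, and 7.15, 7.19 and 6.51 in columnar cells. The 3 GFP+ arrays were all above the 3 lectin-only arrays, and these were all above the 3 columnar arrays. Means were 10.46 ± 0.37 (SD, n = 3) in GFP+ cells, 8.80 ± 0.31 in lectin-only cells and 6.95 ± 0.38 in columnar cells.

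A gene was called where the limma p-value, adjusted over all 18193 genes by the Benjamini-Hochberg method, was under 0.05 and the log2 difference was at least 1 in size. Myc was 11.4-fold higher in GFP+ than in columnar cells, a log2 difference of 3.51 ± 0.27 (SE, limma adjusted p = 4.46e-05). It was 3.61-fold higher in lectin-only than in columnar cells, at 1.85 ± 0.27 (limma adjusted p = 0.00215). Between the lectin-binding gates it was 3.17-fold higher in GFP+ cells, at 1.66 ± 0.27 (limma adjusted p = 0.00978), so both neighbours in the order of levels differed beyond their spread. With p-values adjusted over all 45037 probe sets in place of genes, this last difference passed (limma adjusted p = 0.0184), but the call was lost without GFP+ replicate 1 (0.0868), GFP+ replicate 2 (0.0618), lectin-only replicate 1 (0.0725) or lectin-only replicate 3 (0.0677). In these bulk samples, fewer cells that express a gene and less of its RNA per cell cannot be told apart. The mean signal of the basal cell genes stood in the same order of gates as Myc. Not every gene did: Krt17 had means of 11.99 in GFP+ cells and 12.42 in lectin-only cells, and Krt15 of 13.72 and 13.74. Among all genes, 5.88% were called higher in GFP+ against columnar, 6.47% in lectin-only against columnar and 0.896% in GFP+ against lectin-only. Of the 12 basal cell genes, 11 were called higher in GFP+ against columnar, 10 in lectin-only against columnar and 6 in GFP+ against lectin-only. Their part in the Myc result was not tested.

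The 5 genes whose pattern was most like that of Myc were found by the root mean square difference between their signals and those of Myc over the 9 arrays, each gene centred on its own mean. They were Sparc, a matrix protein, at 0.18 log2 units, Adamtsl5 at 0.19, Ltbp4, a binding protein of latent TGF-beta, at 0.23, Amotl1 at 0.29 and Evc, a component of the primary cilium, at 0.30. Sparc had mean signals of 12.09 in GFP+ cells, 10.54 in lectin-only cells and 8.85 in columnar cells. A spacing close to that of Myc follows from its choice by likeness.

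**Figure D1:**
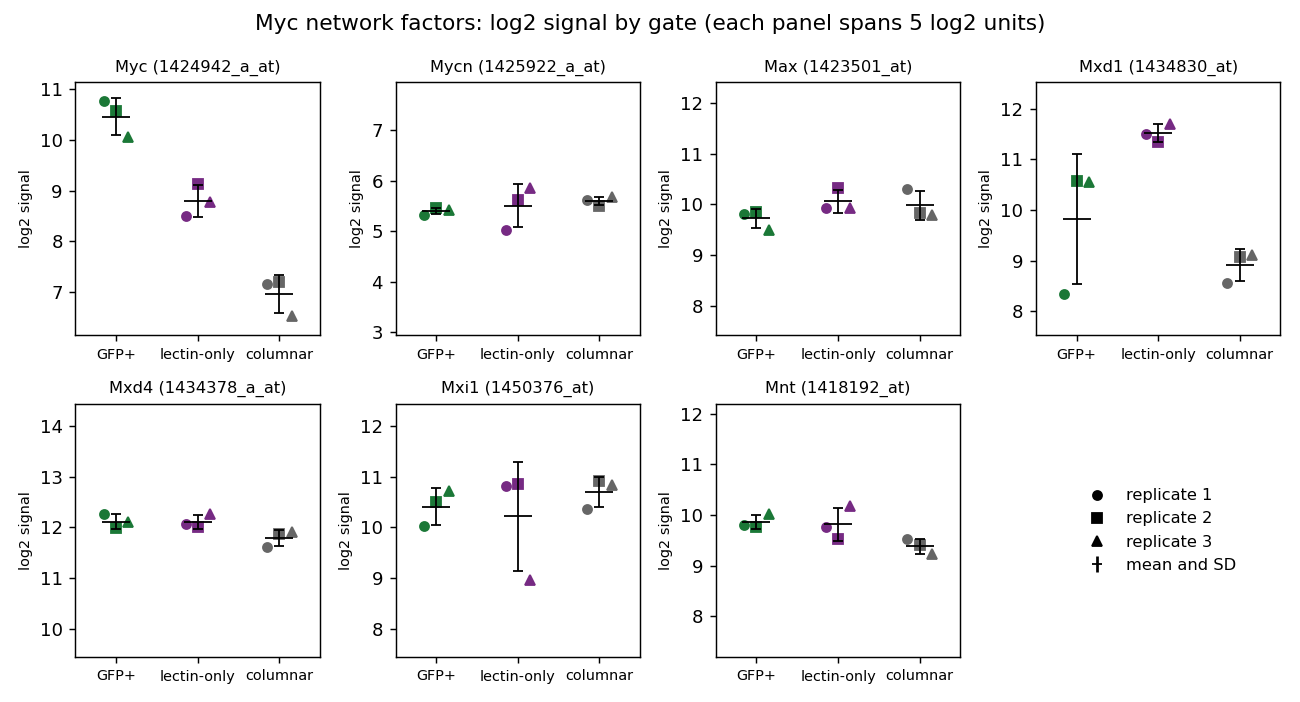
Log2 signal (vertical axis) of the brightest probe set of each member in the GFP+, lectin-only and columnar gates. Points are single arrays, with a marker for each replicate number, bars give the mean and SD over 3 arrays, and all panels span the same number of log2 units. Myc falls in steps of means of 10.46, 8.80 and 6.95, Mxd1 is highest in lectin-only cells, and GFP+ replicate 1 lies apart for Mxd1.

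Mycn, the paralogue that can stand in for Myc in other tissues, was not called in any comparison. Its brightest probe set, 1425922_a_at, had log2 signals of 5.33, 5.46 and 5.41 in GFP+ cells, 5.03, 5.62 and 5.86 in lectin-only cells and 5.62, 5.50 and 5.67 in columnar cells. All 9 arrays lay within 5.03 to 5.86, and the lectin-only arrays overlapped both other gates. The difference was -0.20 ± 0.22 (SE) in GFP+ against columnar, with a 95% confidence interval of -0.68 to 0.29. The other probe sets of Mycn were near or under background: 1425923_at was above it on 4 of 9 arrays and 1417155_at on 1, lectin-only replicate 3.

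Max, the shared partner, showed little difference between gates. Its probe set, 1423501_at, had log2 signals of 9.81, 9.86 and 9.50 in GFP+ cells, 9.93, 10.33 and 9.92 in lectin-only cells and 10.31, 9.84 and 9.79 in columnar cells. The GFP+ arrays were all below the lectin-only arrays by a narrow margin, and both overlapped the columnar arrays. The difference was -0.25 ± 0.21 (SE) in GFP+ against columnar (limma adjusted p = 0.546), with a 95% interval of -0.73 to 0.22. In GFP+ against lectin-only it was -0.34 ± 0.21, with an interval of -0.81 to 0.14. Myc differed by 3.51 and 1.66 in the same comparisons, outside these intervals for its partner.

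Mxd1, a Max partner that represses, had its highest level in lectin-only cells, an order of gates unlike that of Myc. Probe set 1434830_at had log2 signals of 8.34, 10.58 and 10.55 in GFP+ cells, 11.51, 11.35 and 11.71 in lectin-only cells and 8.55, 9.07 and 9.11 in columnar cells. The lectin-only arrays were above every array of the other gates, whereas GFP+ replicate 1 was below the columnar arrays and GFP+ replicates 2 and 3 were above them. Means were 9.82 ± 1.29 (SD, n = 3) in GFP+ cells, 11.52 ± 0.18 in lectin-only cells and 8.91 ± 0.31 in columnar cells.

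Mxd1 was 6.13-fold higher in lectin-only than in columnar cells, a log2 difference of 2.62 ± 0.52 (SE, limma adjusted p = 0.0104). In GFP+ against lectin-only it differed by -1.70 ± 0.52 and did not pass (limma adjusted p = 0.121), although the arrays of these gates did not overlap. In GFP+ against columnar it differed by 0.91 ± 0.52 (limma adjusted p = 0.335), with a 95% interval of -0.26 to 2.08. That value depended on 1 array: without GFP+ replicate 1 the difference was 1.66 ± 0.23 and passed (limma adjusted p = 0.00231), and the difference from the lectin-only gate became -0.96 ± 0.23 (limma adjusted p = 0.0908).

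A second probe set of Mxd1 gave the same order of gates and the third did not differ. Probe set 1455104_at had log2 signals of 8.43, 10.30 and 10.23 in GFP+ cells, 11.00, 10.99 and 11.24 in lectin-only cells and 8.88, 8.63 and 8.99 in columnar cells. GFP+ replicate 1 was again the lowest of all arrays. Its difference was 2.24 ± 0.43 in lectin-only against columnar (limma adjusted p = 0.0145 over all probe sets). Over all probe sets this call was lost without lectin-only replicate 1 (limma adjusted p = 0.0533), lectin-only replicate 3 (0.0632) or columnar replicate 2 (0.0526). That of 1434830_at, which also passed (0.0171), was lost without lectin-only replicate 1 (0.0649), lectin-only replicate 3 (0.0737) or columnar replicate 1 (0.0648). Probe set 1422002_at lay at 5.08 to 5.88 on all 9 arrays and differed by 0.10 ± 0.23 in the same comparison.

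Markers of several cell classes were highest in lectin-only cells, as Mxd1 was. Among all genes, 6.47% were called higher in lectin-only against columnar, and 5.88% higher and 5.33% lower in GFP+ against columnar. In GFP+ against lectin-only, 2.84% of all genes were called lower. Of 12 squamous (hillock) cell genes, a class of stratified airway cells, 12 were called higher in lectin-only against columnar and 9 in GFP+ against columnar. Their mean log2 signal was 8.50, 10.46 and 9.67 in GFP+ cells, 10.78, 10.92 and 10.42 in lectin-only cells and 5.81, 6.56 and 7.70 in columnar cells, so GFP+ replicate 1 was the lowest GFP+ array here too. On that array 6 of these 12 genes were at least 1 log2 unit below both other GFP+ arrays, against 2.40% of all genes and 0 of 12 basal cell genes. The same held for 3 of 11 ciliated, 2 of 12 club and mucous, 3 of 19 leukocyte and 1 of 7 brush cell genes. It held for 0 genes of the endothelial, fibroblast, smooth muscle and myoepithelial, neuroendocrine and erythroid lists. Of 19 leukocyte genes, 16 were called higher in lectin-only against columnar and 5 higher and 1 lower in GFP+ against columnar, and Ptprc, the leukocyte common antigen, had log2 signals of 5.11, 4.73 and 6.38 in GFP+ cells, 8.85, 8.29 and 9.72 in lectin-only cells and 4.36, 2.86 and 2.53 in columnar cells. No gene of the leukocyte list was under background on all arrays of any gate, and 1 squamous gene was so in columnar cells. Of 10 endothelial genes, 3 were called higher in lectin-only against columnar and 2 lower in GFP+ against lectin-only, and their mean log2 signal lay at 3.60 to 3.87 in GFP+ cells, 4.46 to 4.74 in lectin-only cells and 3.5 to 3.81 in columnar cells. Of 8 smooth muscle and myoepithelial genes, 2 were called higher in GFP+ against columnar and 3 in lectin-only against columnar, and their mean lay at 4.58 to 5.19 in GFP+ cells, 5.06 to 5.76 in lectin-only cells and 3.79 to 4.03 in columnar cells. Unlike for Mxd1, GFP+ replicate 1 was the highest GFP+ array for the endothelial mean (3.87) and the smooth muscle mean (5.19). All genes of both lists were above background on at least 1 lectin-only array, while 2 endothelial and 2 smooth muscle genes were under it on all GFP+ arrays, and 4 and 2 on all columnar arrays. The part of these cell classes in the Mxd1 levels was not tested.

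The control probe sets for RNA quality also differed on the array that was low for Mxd1. The log2 signal of the 3′ minus the 5′ Gapdh probe set was 1.32, 1.97 and 2.07 in GFP+ cells, 1.60, 1.82 and 1.74 in lectin-only cells and 1.28, 1.48 and 1.54 in columnar cells. GFP+ replicate 1 thus lay within the range of the columnar arrays and below its own gate, and the part of this in the Mxd1 level was not tested.

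The genes whose pattern over the 9 arrays was most like that of Mxd1 were Pigz at a root mean square difference of 0.19 log2 units, the keratin Krt80 and Plac8 at 0.31, and the serine protease Tmprss3 and the sorting nexin Snx31 at 0.32. Krt80 had mean log2 signals of 10.32 in GFP+ cells, 11.76 in lectin-only cells and 9.25 in columnar cells. All 5 had their highest mean in lectin-only cells and their lowest in columnar cells. This order follows from their choice by likeness to Mxd1.

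**Figure D2:**
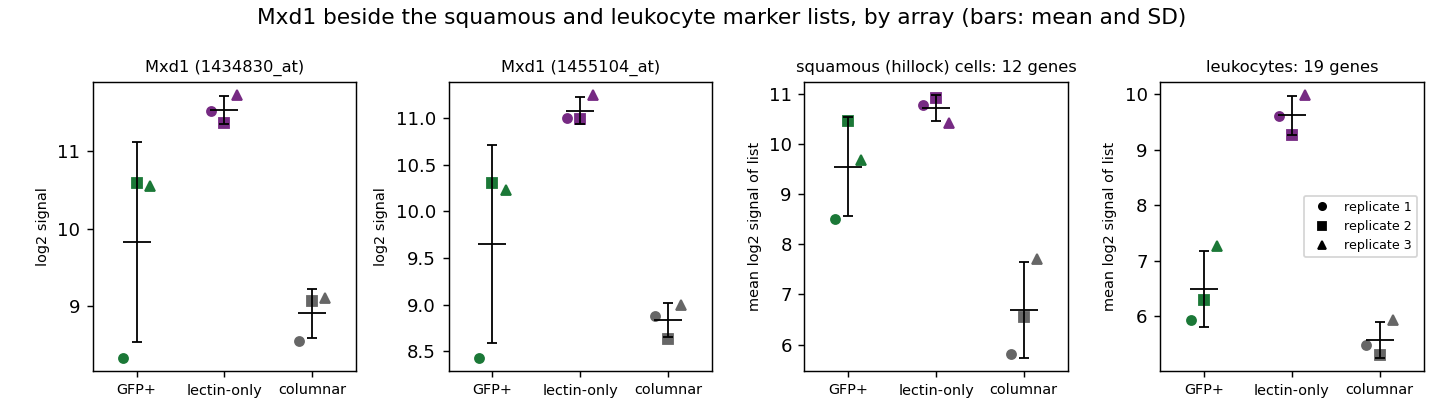
Log2 signal (vertical axes) of 2 Mxd1 probe sets beside the mean log2 signal of the squamous and leukocyte marker lists in the GFP+, lectin-only and columnar gates. Points are single arrays and bars the mean and SD over 3 arrays. GFP+ replicate 1 (circle) is the lowest GFP+ array in all 4 panels, and the lectin-only gate has the highest mean in each.

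Mxd4, Mxi1 and Mnt, the other repressive partners of Max, were not called in any comparison. The brightest probe set of Mxd4, 1434378_a_at, had log2 signals of 12.27, 11.98 and 12.10 in GFP+ cells, 12.06, 12.00 and 12.26 in lectin-only cells and 11.61, 11.87 and 11.90 in columnar cells. Both lectin-binding gates lay above the columnar gate by less than 1 log2 unit, at 0.33 ± 0.17 (SE) for GFP+ and 0.31 ± 0.17 for lectin-only, and the upper ends of the 95% intervals were 0.71 and 0.69. The other 3 probe sets of Mxd4 differed by between -0.39 and 0.55 over the comparisons, and lectin-only replicate 3 was the highest array for both 1422574_at (7.63) and 1422575_at (5.56).

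Mxi1 had log2 signals of 10.02, 10.50 and 10.72 in GFP+ cells, 10.82, 10.86 and 8.97 in lectin-only cells and 10.36, 10.91 and 10.84 in columnar cells with probe set 1450376_at. Lectin-only replicate 3 was far below all other arrays, and the gates otherwise overlapped. The difference in lectin-only against columnar was -0.48 ± 0.46 (SE) with this array and 0.14 without it. Its second probe set, 1425732_a_at, had log2 signals of 5.54, 5.10 and 5.59 in GFP+ cells, 6.0, 5.83 and 5.42 in lectin-only cells and 6.16, 5.87 and 6.29 in columnar cells. The GFP+ arrays were all below the columnar arrays here, at -0.70 ± 0.22, and did not pass (limma adjusted p = 0.105).

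Mnt, the most broadly expressed of the repressive partners in mouse tissues, had log2 signals of 9.80, 9.77 and 10.03 in GFP+ cells, 9.76, 9.53 and 10.17 in lectin-only cells and 9.52, 9.41 and 9.22 in columnar cells with probe set 1418192_at. The arrays of both lectin-binding gates lay above the columnar arrays. The difference was 0.48 ± 0.20 (SE) in GFP+ against columnar (limma adjusted p = 0.169) and 0.44 ± 0.20 in lectin-only against columnar (limma adjusted p = 0.245), with 95% intervals of 0.03 to 0.94 and -0.01 to 0.89. The second probe set, 1418193_at, was under background on all 9 arrays.

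Counted over the members, 1 of 7 was called higher and 0 lower in GFP+ against columnar, where the calls among all genes were 5.88% higher and 5.33% lower. In lectin-only against columnar 2 of 7 were called higher and 0 lower, beside 6.47% higher and 2.38% lower among all genes. In GFP+ against lectin-only 1 of 7 was called higher and 0 lower, beside 0.896% and 2.84%. The first count became 2 without GFP+ replicate 1, which added Mxd1. With each array centred on its median, the genes called higher and lower over the whole table were 968 and 714 in lectin-only against columnar, in place of 1177 and 433, and 259 and 455 in GFP+ against lectin-only, in place of 163 and 517. The median log2 difference of the 7 members was 0.33, 0.31 and 0.02 in the 3 comparisons, beside -0.04, 0.07 and -0.10 over all genes.

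The arrays of the compared gates did not overlap for 4 of 7 members in GFP+ against columnar, where the same held for 33.6% of all genes. This count was 4 of 7 in lectin-only against columnar (24.6% of all genes) and 3 of 7 in GFP+ against lectin-only (18.6%). By probe set, 1 of 16 was called higher in GFP+ against columnar, where 3.86% of all probe sets were called higher and 3.14% lower. In lectin-only against columnar 3 of 16 were called higher, beside 3.81% higher and 1.28% lower, and in GFP+ against lectin-only 1 of 16, beside 0.451% and 1.18%. Arrays did not overlap for 5 of 16 probe sets in GFP+ against columnar (26.5% of all probe sets), 5 of 16 in lectin-only against columnar (18.7%) and 4 of 16 in GFP+ against lectin-only (14.4%). The comparisons share arrays and are not independent of each other.

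**Figure D3:**
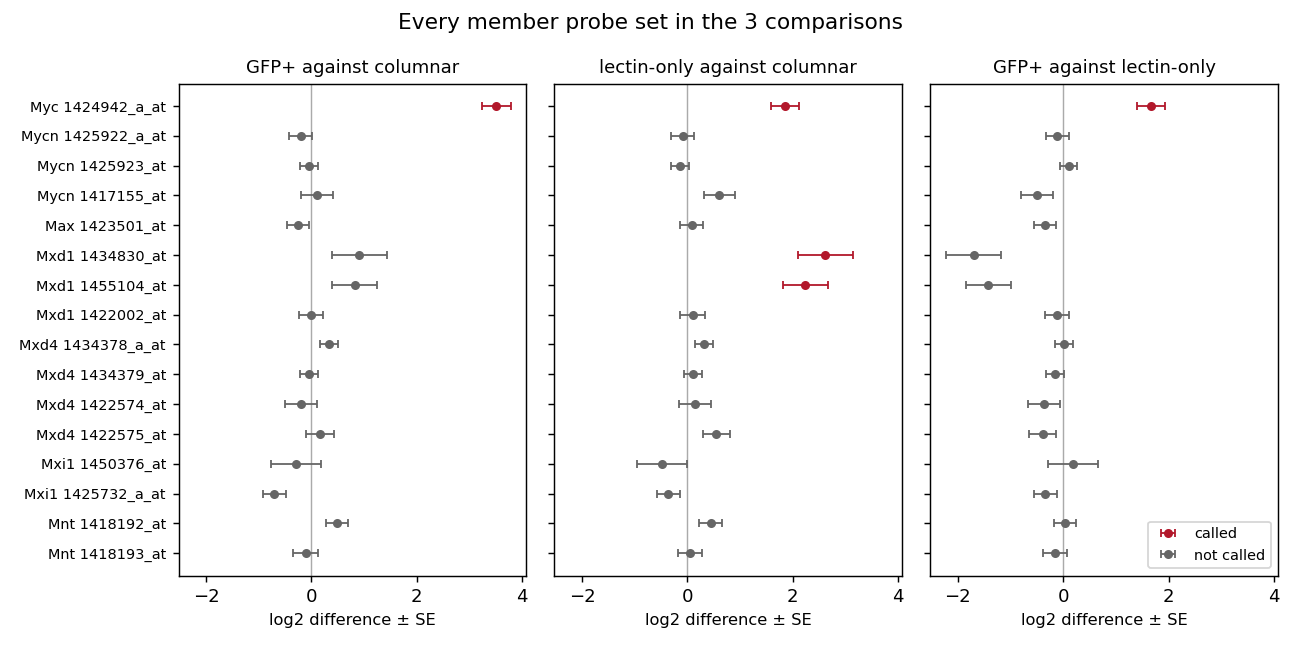
Log2 difference with its limma SE (horizontal axis) of all 16 member probe sets, in GFP+ against columnar, lectin-only against columnar and GFP+ against lectin-only. Red marks probe sets called by limma over all probe sets. Myc is called in each panel, at 3.51, 1.85 and 1.66, a pair of Mxd1 probe sets is called in the middle panel, and the remaining probe sets lie within 1 log2 unit of 0 apart from Mxd1 in the right panel.

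The wider network and the cofactors of Myc held 0 called genes of 6, 13 and 7 in each of the 3 comparisons by limma. At an unadjusted limma p under 0.05, 1, 2 and 2 of them differed in GFP+ against columnar, 2, 1 and 0 in lectin-only against columnar, and 1, 1 and 0 in GFP+ against lectin-only. No matching count over the whole table was made, here or for the unadjusted counts of the lists below. Whether any of them exceeds the general share was therefore not tested. Single arrays ended 3 of these zeros: 1 coactivator was called higher in GFP+ against columnar without columnar replicate 3, 1 gene of the wider network lower in lectin-only against columnar without GFP+ replicate 2, and 1 higher in GFP+ against lectin-only without GFP+ replicate 1. The 6 other factors of the network were Mycl, Mxd3, Mga, Mlx, Mlxip and Mlxipl. Mycl, a further Myc paralogue, had log2 signals of 10.85, 11.12 and 10.81 in GFP+ cells, 11.16, 11.63 and 11.20 in lectin-only cells and 10.78, 10.78 and 10.40 in columnar cells. The lectin-only arrays were the highest, and the difference of 0.67 ± 0.20 (SE) from the columnar gate did not pass (limma adjusted p = 0.0667). Mlxipl, the glucose-responsive partner of Mlx, differed by -1.01 ± 0.36 in lectin-only against columnar (limma adjusted p = 0.124) and 1.15 ± 0.36 in GFP+ against lectin-only (limma adjusted p = 0.128). Among 13 coactivators and binding partners, Zbtb17, a zinc finger factor through which Myc represses genes, lay at 0.83 ± 0.20 in GFP+ against columnar, under the difference of 1 that a call required. A second probe set of Zbtb17 lay at -0.32 ± 0.28 in the same comparison. The 7 measured Sin3 and histone deacetylase genes had medians of -0.03, 0.04 and 0.03 in the 3 comparisons.

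Of 17 measured genes that control the stability of the Myc protein, 3 rose in GFP+ against columnar and 0 fell, beside 5.88% higher and 5.33% lower among all genes. Cip2a, an inhibitor of the phosphatase that marks Myc for breakdown in human cells, had log2 signals of 8.73, 9.65 and 9.80 in GFP+ cells, 9.16, 8.74 and 9.58 in lectin-only cells and 7.68, 8.14 and 7.46 in columnar cells. It was higher than columnar in GFP+ at 1.64 ± 0.33 (SE, limma adjusted p = 0.00854) and in lectin-only at 1.40 ± 0.33 (limma adjusted p = 0.0235), while a dimmer probe set of it lay at 0.13 and 0.12. Usp28, a deubiquitinase that stabilises Myc, was higher in GFP+ against columnar at 1.46 ± 0.31, and Plk1, a mitotic kinase, at 1.06 ± 0.22. In lectin-only against columnar Cip2a was the 1 gene called, beside 6.47% of all genes called higher, and the count was 0 without lectin-only replicate 1, lectin-only replicate 3 or columnar replicate 1, and 2 without columnar replicate 2 or 3.

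Genes known to be induced by Myc were counted in the lists of ribosome production, metabolism and translation, and the cell cycle. In GFP+ against columnar the lists held 0 of 26, 1 of 26 and 3 of 15 genes called higher, beside 5.88% of all genes. Of 26 genes of ribosome production, limma called 0 in every comparison, with 7, 1 and 4 at an unadjusted p under 0.05 in GFP+ against columnar, lectin-only against columnar and GFP+ against lectin-only. These unadjusted counts have no baseline from the whole table and are not read as a response. Without columnar replicate 2 the count of higher genes in GFP+ against columnar was 1. The median log2 difference of the 26 genes was 0.29 in GFP+ against columnar, 0.07 in lectin-only against columnar and 0.33 in GFP+ against lectin-only. The largest in GFP+ against columnar were Dkc1, a pseudouridine synthase, at 0.86 ± 0.25 (SE) and Nop2, a methyltransferase of ribosomal RNA, at 0.67 ± 0.19. Their mean log2 signal was 9.89, 9.60 and 9.32 in GFP+ cells, 9.20, 9.33 and 9.41 in lectin-only cells and 9.43, 9.26 and 9.21 in columnar cells. The GFP+ arrays overlapped the other gates, and replicate 1 was the highest. The E-box CACGTG was in 33.3% of the promoter windows of these genes, 7 of 21, against 10.2% of all measured genes.

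Of 26 measured genes of metabolism and translation, 1 rose and 1 fell in GFP+ against columnar, beside 5.88% and 5.33% of all genes, and limma called 0 in lectin-only against columnar and in GFP+ against lectin-only, with 3 and 5 at an unadjusted p under 0.05. Shmt2, the mitochondrial serine hydroxymethyltransferase, was higher at 1.59 ± 0.28 (SE, limma adjusted p = 0.00424), while its other 3 probe sets lay between 0.75 and 0.97 and were not called. The glutamine transporter Slc1a5 was lower at -1.0 ± 0.24 (limma adjusted p = 0.0202), just past the difference a call required, while a second probe set of it lay at 0.20 ± 0.30, and its call was lost without GFP+ replicate 3, columnar replicate 1 or columnar replicate 2. Odc1, an enzyme of polyamine synthesis often used as a readout of Myc, lay at -0.22 ± 0.23 (limma adjusted p = 0.646). Srm, another enzyme of that synthesis, went the other way and was not called. Its log2 signals were 10.38, 9.69 and 9.92 in GFP+ cells and 8.86, 9.13 and 9.24 in columnar cells. The count of higher genes in GFP+ against columnar was 2 without GFP+ replicate 2 and 3 without columnar replicate 1, and in GFP+ against lectin-only it was 1 without lectin-only replicate 2.

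Of 15 measured cell cycle genes induced by Myc, 3 rose in GFP+ against columnar, Mcm5 of the replicative helicase at 1.78 ± 0.50 (SE, limma adjusted p = 0.0437), the cyclin Ccna2 at 1.71 ± 0.41 (limma adjusted p = 0.0204) and the factor E2f1 at 1.64 ± 0.28 (limma adjusted p = 0.00321). E2f1 had log2 signals of 5.52, 5.74 and 5.65 in GFP+ cells, 5.18, 5.62 and 6.09 in lectin-only cells and 3.5, 4.28 and 4.21 in columnar cells. It was also the 1 gene of this list called in lectin-only against columnar, at 1.63 ± 0.28, while 2 dimmer probe sets of it lay at 0.09 and 0.10 in GFP+ against columnar. Adjusted over all probe sets the brightest Mcm5 probe set did not pass (limma adjusted p = 0.065), while a second did at 1.23 ± 0.31 (limma adjusted p = 0.0378). A second probe set of Ccna2 lay at 1.31 ± 0.45 in GFP+ against columnar and was not called (limma adjusted p = 0.129). The count in GFP+ against columnar fell to 1 without GFP+ replicate 2 and with only these 2 gates in the fit. In lectin-only against columnar it was 2 without columnar replicate 2.

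Genes known to be repressed by Myc included the largest differences of any list around it. Those called were higher in a lectin-binding gate than in columnar cells, as Myc was. In GFP+ against lectin-only, where Myc was also higher, 0 genes of this list were called, beside 0.896% higher and 2.84% lower among all genes. Of the 11 genes of this list, 4 rose and 0 fell in GFP+ against columnar, and 4 rose and 0 fell in lectin-only against columnar. Among all genes 5.88% were higher and 5.33% lower in GFP+ against columnar, and 6.47% higher and 2.38% lower in lectin-only against columnar. Ndrg1, a gene named for its repression by Mycn, had log2 signals of 11.49, 11.34 and 11.48 in GFP+ cells, 11.27, 11.05 and 11.28 in lectin-only cells and 6.01, 6.92 and 8.24 in columnar cells. The lectin-binding gates lay close together and far above the columnar arrays, which were themselves spread from 6.01 to 8.24. Its difference was 4.38 ± 0.45 (SE, limma adjusted p = 0.000185) in GFP+ against columnar and 4.14 ± 0.45 (limma adjusted p = 0.000422) in lectin-only against columnar. All 5 of its probe sets were called higher in both.

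Ndrg2, its paralogue, was higher by 2.81 ± 0.37 (SE) in GFP+ and 2.93 ± 0.37 in lectin-only, each against columnar. Cdkn1a, a cyclin-dependent kinase inhibitor that stops the cell cycle, had log2 signals of 10.72, 11.33 and 11.72 in GFP+ cells, 11.92, 11.62 and 12.11 in lectin-only cells and 9.62, 9.96 and 10.33 in columnar cells. It was higher at 1.28 ± 0.29 in GFP+ against columnar (limma adjusted p = 0.0147) and at 1.91 ± 0.29 in lectin-only against columnar (limma adjusted p = 0.00244). A second probe set of Cdkn1a was called in lectin-only against columnar at 1.99 ± 0.30. In GFP+ against columnar this probe set lay at 1.04 ± 0.30 and was not called (limma adjusted p = 0.0694). Thbs1, an inhibitor of blood vessel growth, was called in GFP+ against columnar at 2.30 ± 0.37 and stood at 0.90 ± 0.37 in lectin-only. Gas1, a growth arrest gene, was called in lectin-only against columnar at 3.08 ± 0.79 and stood at 2.32 ± 0.79 in GFP+, where replicate 1 had a log2 signal of 4.39 against 7.93 and 7.03 on the others. Adjusted over all probe sets the Gas1 call was lost (limma adjusted p = 0.0545), a second probe set was called in lectin-only against columnar at 1.78 ± 0.43 (limma adjusted p = 0.0418), and a further one lay at 0.36 ± 0.20 in lectin-only and -0.21 ± 0.20 in GFP+.

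In GFP+ against lectin-only, limma called 0 genes of this list, with 2 at an unadjusted p under 0.05, and the largest differences were Cdkn2b, a further kinase inhibitor, at -2.01 ± 0.70 (SE, limma adjusted p = 0.176) and Thbs1 at 1.40 ± 0.37 (limma adjusted p = 0.0691). A count of 1 higher was reached without columnar replicate 1 or 3, with arrays centred, with the mean of all probe sets and with 3 other settings. The basal and squamous marker lists were also higher in both lectin-binding gates, as given above. The leukocyte list was higher in lectin-only against columnar, with 16 of 19 genes called and a median log2 difference of 4.56, against 5 of 19 called higher and a median of 1.14 in GFP+ against columnar. The part of these lists in the differences was not tested.

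**Figure D4:**
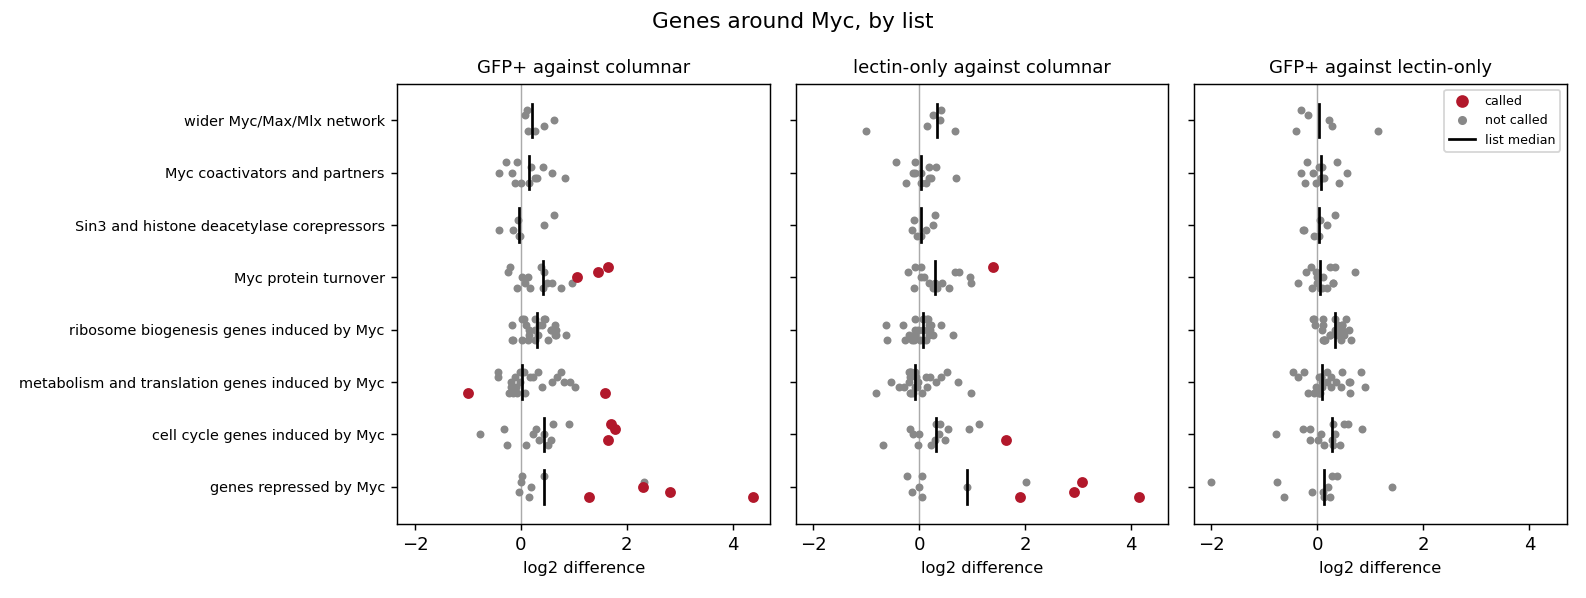
Log2 difference (horizontal axis) of every measured gene in the lists around Myc, for GFP+ against columnar, lectin-only against columnar and GFP+ against lectin-only. Each point is a gene, red where limma called it, and black bars are list medians. Red points lie furthest right among genes repressed by Myc, up to 4.38 for Ndrg1. In the right panel limma called 0 of 121 genes, beside 0.896% higher and 2.84% lower among all genes. At an unadjusted limma p under 0.05 there were 14, and the share of all genes under that p-value was not counted.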

How the data were processed

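Signals were used as deposited, on a log2 scale with a column for each array, made by the authors with RMA (background correction, quantile normalization and probe set summary), per the submitters' processing notes. Software, version and filters are not given in the sources used here. Array medians ran from 4.91 in columnar replicate 3 to 5.44 in lectin-only replicate 3, so the arrays as used did not share the same distribution. Whether they were normalized in separate runs or changed later is not known, and the part of this in the results was not tested. The table held 45101 probe sets, 64 of them controls. The platform annotation gave 1 symbol for 34945, several for 932 and none for 9160. By gene ID, 34754 probe sets were matched to RefSeq and took its symbol. Where a gene had several probe sets, that of highest mean over all arrays stood for it, giving 18193 genes. Gate means were fitted to all 9 arrays with limma 3.58.1 in R 4.3.3 (lmFit, eBayes, 6 residual and 3.46 prior degrees of freedom), and again over 45037 probe sets. Errors of differences are limma SE (median 0.24 over genes), and the number of arrays limits the precision. Background was the 95th percentile of 80 olfactory and vomeronasal receptor probe sets. The fit was tested on simulated data. Members and lists were chosen with earlier results of these data known. Of each list and comparison, up to 4 called genes of largest difference were named, or up to 2 where 0 were called. Odc1, Srm, Krt15, Krt17 and the second probe sets were added after their values were seen. Alternatives covered scaling, filter, probe set choice, variance model, the gates in the fit, a replicate block and each array left out. Some listed genes had no probe set with their symbol alone and were not analysed here. Promoter windows are from RefSeq.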

Additional observations from a re-analysis of the deposited data

How the results depend on the processing

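The 3 calls of Myc and the call of Mxd1 in lectin-only against columnar, with p-values adjusted over genes, kept their direction and their side of the threshold in all alternatives. Without 1 array each, Myc ranged over 3.29 to 3.72, 1.63 to 2.00 and 1.51 to 1.87 in GFP+ against columnar, lectin-only against columnar and GFP+ against lectin-only, and Mxd1 over 2.44 to 2.72 in lectin-only against columnar. With the mean of all probe sets Mxd1 was 1.65 there, an average that takes in the probe set that did not differ. The members called higher in GFP+ against columnar numbered 1 to 2 when 1 array was left out. Over all genes, those called higher in GFP+ against lectin-only numbered 85 to 163 with 1 array left out and 259 with arrays centred on their medians, against 163 as deposited. Those called lower there numbered 288 to 517 with 1 array left out. Genes called lower in lectin-only against columnar numbered 714 with centring, against 433. Centring moved the median difference over all genes to -0.12, -0.17 and 0.06 in the 3 comparisons, and Myc to 3.43, 1.61 and 1.82. The causes were not tested. The labels do not say that replicate numbers pair the arrays, and whether they do was not settled: the deviations of same-numbered arrays correlated at -0.07 to 0.33, over 0.1 in 4 of 9 pairs, and those of differently numbered arrays at -0.47 to 0.17. With the number as a replicate block, Myc was 3.51, 1.85 and 1.66, the same members were called, and 203 genes were higher and 703 lower in GFP+ against lectin-only. With 3 arrays a gate, the SE of 0.52 for Mxd1 limits what its comparisons can separate.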
